A study of Mus musculus with 18 samples.

Results

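Cytosolic ribosomal protein genes encode the protein parts of the ribosome that works in the cytoplasm. They were chosen by name: mouse protein-coding genes whose symbol begins with Rpl (large subunit) or Rps (small subunit) and a digit, together with Rpsa, Rplp0, Rplp1 and Rplp2. Symbols with -ps, for pseudogenes, and the Rps6k kinases were left out. The name matched 93 symbols, of which 7 are annotated as pseudogenes, which left 86 genes of the 50689 features in the table. Of these 86 genes, 52 have large-subunit names and 33 small-subunit names. The remaining gene, Rps19bp1, matches the name but encodes a protein that binds Rps19 and is not part of the ribosome. The genes lie on 19 chromosomes, with 4 on the X.

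Each ribosome holds a single copy of most of these proteins around its ribosomal RNA, and the proteins are made in matched amounts. Their mRNAs begin with a tract of pyrimidines (C and T), the 5′ terminal oligopyrimidine or TOP motif, through which mTORC1 signalling controls their translation. Satellite cells are muscle stem cells. Once activated they raise ribosome production when they leave quiescence and proliferate. Ribosomal protein genes have also left many processed pseudogenes, copies of their mRNAs inserted elsewhere in the genome, so a short read can match several places.

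The study measured RNA in proliferating satellite cells grown from a leg muscle, the tibialis anterior, of C57BL6 mice. Control cells had the genotype Hoxa10f/f, with Hoxa10 flanked by Cre target sites (9 libraries). Cells labelled scKO had the genotype Pax7-CreERT2/+;Hoxa10f/f, which adds a tamoxifen-inducible Cre expressed from Pax7, the transcription factor gene that marks satellite cells (9 libraries). The labels give 4-hydroxytamoxifen, 1 µM for 2 days, for scKO cells and name no such treatment for controls, so the loss of Hoxa10, the Cre and the drug cannot be told apart. The floxed alleles are in both groups. The labels give no age or sex and do not say whether libraries came from separate mice or cultures, so p-values measure the spread between these libraries, which may be technical. In bulk RNA, fewer cells of a type and less RNA per cell cannot be told apart.

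The values are counts of unique molecular identifiers (UMIs, random tags that mark single molecules). The highest count equals the number of different tags of 6 bases, so counts of abundant genes stop at that ceiling in deep libraries, and Rpl4 comes near it in shallow ones. Total counts were 420197 to 968559 in 13 shallow libraries (7 control, 6 scKO) and above 2000000 in 5 deep ones (2 control, 3 scKO), and groups were judged in the shallow libraries. Hoxa10, the targeted gene, had 13.6, 24.0 and 59.3 CPM (counts per 1000000; lowest, median and highest) in shallow controls and 1.73, 3.06 and 4.39 CPM in shallow scKO libraries, without overlap. The deep controls had 50.4 and 53.4 CPM of Hoxa10 and the deep scKO libraries 9.11, 9.42 and 13.6 CPM. Summed CPM of the 13 myogenic markers was 10769 to 15846 in controls and 12384 to 13709 in scKO, with none at 0 in every library. The 6 leukocyte markers reached at most 16.1 CPM, with Adgre1 at 0, and the 6 endothelial markers at most 35.5 CPM, with Cldn5 at 0. The highest sums in any shallow library were 255 CPM for 7 fibro-adipogenic, 153 CPM for 6 smooth muscle and pericyte, and 134 CPM for 6 Schwann cell markers. Among the shallow libraries, controls 7, 8 and 9 and scKO 1 stood apart on the first principal component of all tested genes, with scores of 30.5 to 35.3 against -19.7 to -7.24 in the other 9. They hold both groups, so the main comparisons of the ribosomal protein genes below are also given without these 4.

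The mRNA start of these genes is where the TOP motif lies. RefSeq promoters (GRCm38.p6) of 300 bases, 250 before and 50 after each annotated start, were found for 66 of the 86 genes, 78 promoters in all. A C followed by at least 4 pyrimidines stood exactly at the annotated start in 14 of 78 promoters (17.9%), against 2.51% of all 32851 promoters. A C followed by at least 5 pyrimidines lay on the sense strand within 10 bases before to 15 after the start in 36 of 78 (46.2%), against 18.5% of all. Shown first below are the genes with the smallest p, 2 lower and 1 higher in scKO libraries, then a pair that lay on opposite sides in the libraries that stood apart, and the most abundant gene. Each line gives 15 bases before and 15 from the annotated start on, with pyrimidine runs of 5 or more in capitals. The bases of Rpl26, which has no such run there, have CCGGAAGT in capitals.
Rpl26, chr11:68901551-68901580, plus strand: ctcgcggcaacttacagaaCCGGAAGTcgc
Rpl14, chr9:120571502-120571531, plus strand: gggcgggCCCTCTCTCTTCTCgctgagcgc
Rpl35a, chr16:33056467-33056496, plus strand: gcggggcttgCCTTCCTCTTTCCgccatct
Rps9, chr7:3704026-3704055, plus strand: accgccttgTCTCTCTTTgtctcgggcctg
Rpl35, chr2:39005117-39005146, minus strand: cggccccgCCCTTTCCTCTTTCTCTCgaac
Rpl4, chr9:64173372-64173401, plus strand: TTCCTTTTCCTgtgggagcagccgggtaga

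In Rpl14, Rpl35a, Rps9 and Rpl35 the run spans the annotated start, while in Rpl4 it lies before it. Rpl35a has 3 annotated starts, and the window shown is the start with the longest run. On either strand of the whole 300 bases, CTTTCC occurred in 40 of 78 promoters (51.3%, against 26.6% of all) and CCGGAAGT, the core bound by ETS-family factors such as GABPA, in 12 (15.4%, against 3.89%). The reverse of CTTTCC and CCGGAAGT both contain GGAA, but the same GGAA cannot complete both. TATAAA was found in 7 (8.97%, against 13.6%). These matches describe letters and are not binding sites.

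Levels ranged widely among these genes. Averaged over the 13 shallow libraries, 41 of the 86 genes had at least 100 CPM and 14 had under 10 CPM. Levels of different genes are compared per kilobase of transcript. Since the library kit is not given, it is not known whether counts scale with length, as they do not where only an end of each transcript is tagged. On this scale Rpl4 was highest at 3259 CPM per kb, although its counts are held down by the ceiling. It was followed by Rps12 (2334), Rpl23a (1868), Rpl22 (1799), Rpl38 (1773) and Rps21 (1704 CPM per kb). Genes for core proteins of both subunits were near 0: Rps6, the substrate of S6 kinase, had 0.839 CPM per kb, Rpl7a 1.68 and Rpl29 2.53. Rpl3l, a variant of striated muscle fibres, and Rpl10l, a testis variant, had 0 counts in every shallow library. A count of 0 allows up to 3 counts, which is 3.10 to 7.14 CPM in these libraries, for counting error only.

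The low genes were looked at for sequence that they share with other annotated genes. In GENCODE M21 (GRCm38), 82 of the 86 genes shared at least 1 exact stretch of 50 bases with a pseudogene, the median gene with 8 pseudogenes and Rpl7a with 120. A median of 90.8% of the 50-base stretches of a gene's coding sequence occurred in another annotated gene. The 16 genes with under 50% shared had a median of 229 CPM per kb (0 to 3259). The 39 genes with 50% to under 100% shared had a median of 94.6 (1.68 to 1139), and the 31 genes with all of their coding stretches shared 90.6 (0.839 to 2334). Over the 84 genes with a count, level per kb and share went together weakly (Spearman's rho -0.21, Pearson's r -0.13 on log2 levels). The points share libraries and counting, so these are descriptions. Rps12, Rpl23a and Rpl38 shared all of their coding stretches and were among the highest, while Rps6 shared all of them and was among the lowest. How the authors' counting treated reads with several matches was not given in the sources used here, so levels of genes with shared sequence are uncertain. The submitters' processing notes also name a rat build, Rnor_6.0, beside mouse identifiers. The parts of shared sequence and of the genome used in a gene's level, such as those of Rps6 and Rpl7a near 0, were not tested.

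**Figure D1:**
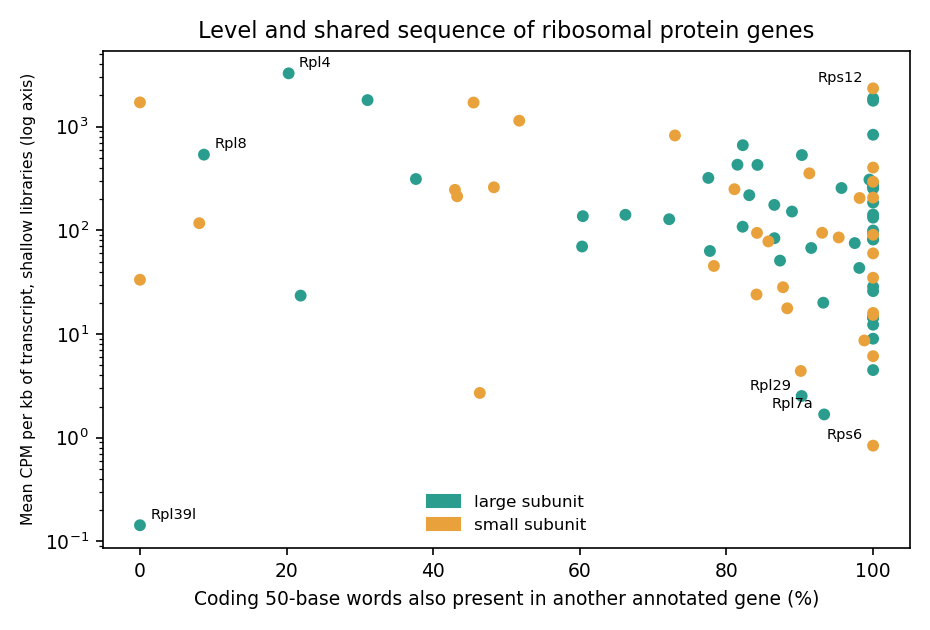
Mean level of each ribosomal protein gene over the 13 shallow libraries (CPM per kilobase of transcript, log axis) against the percent of its coding 50-base stretches that occur in another annotated gene; each point is 1 of the 84 genes with a count, coloured by the subunit in its name. Genes with all stretches shared span 0.839 to 2334 CPM per kb, and Rpl4, at 3259, shares 20.3%.

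As a set, the 86 genes took similar parts of the counts in both groups. Their share of a library's counts was 1.80%, 2.17% and 2.30% (lowest, median and highest) in shallow controls and 1.82%, 2.08% and 2.29% in shallow scKO libraries. The means were 2.06% ± 0.226 (SD, n = 7) and 2.08% ± 0.159 (SD, n = 6), and the ranges overlapped over most of their length. Counting error was small beside this spread, with a 95% Wilson interval of 1.77% to 1.83% for control 7 and 2.27% to 2.33% for control 5. The 4 lowest shares were those of the libraries that stood apart (1.80%, 1.84% and 1.83% in controls 7, 8 and 9, and 1.82% in scKO 1). Without them the means were 2.24% ± 0.0553 (SD, n = 4) and 2.13% ± 0.109 (SD, n = 5). Large-subunit counts exceeded small-subunit counts 2.04 ± 0.310 times (SD, n = 7) in controls and 1.98 ± 0.106 times (SD, n = 6) in scKO libraries. Without the 4 libraries the order turned, with 1.82 ± 0.0779 times (SD, n = 4) in controls and 1.96 ± 0.108 times (SD, n = 5) in scKO libraries. The large-subunit counts include Rpl4, which is held down by the ceiling and alone gave 17.4% to 36.0% of the set's counts. Both the excess and its order between groups therefore depend on this gene, and ratios without it were not computed.

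A single gene, Rpl4, made up much of the set's counts. It gave 18.0% to 36.0% of them in shallow controls and 17.4% to 25.2% in shallow scKO libraries, with counts of 2767 to 3712. These counts are 67.6% to 90.6% of the ceiling, so deeper shallow libraries lose more of them: correcting for UMI collisions raised the count 1.67 times in control 9 and 2.61 times in control 3. After correction Rpl4 gave 29.5% to 47.8% of the set's counts in controls and 31.0% to 43.7% in scKO libraries. Rpl4 lines the exit tunnel of the large subunit. In the deep libraries its count was 4094 or more, at the ceiling, and it gave 2.97% and 3.51% of the set's counts in controls. The other 85 genes took 1.57% ± 0.311 (SD, n = 7) of the counts of shallow controls and 1.62% ± 0.151 (SD, n = 6) of those of scKO libraries. Without the 4 libraries that stood apart the order turned, with 1.81% ± 0.0556 (SD, n = 4) and 1.67% ± 0.0958 (SD, n = 5).

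**Figure D2:**
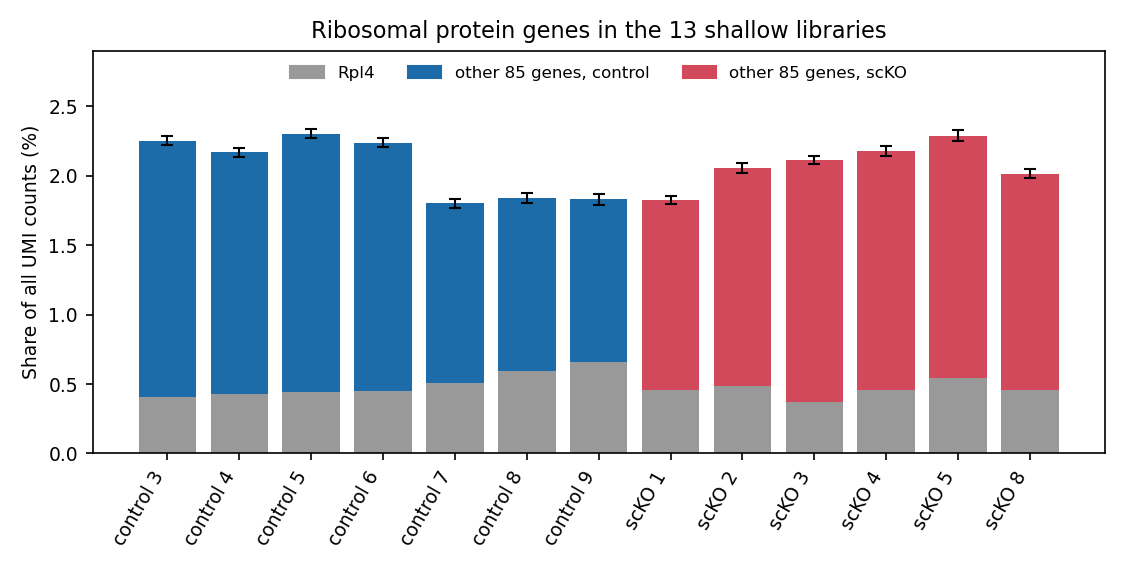
Percent of each shallow library's counts in the 86 ribosomal protein genes, by library, with the part from Rpl4 in grey; error bars are 95% Wilson intervals of the total. The 4 libraries that stood apart have the lowest bars, 1.80% to 1.84%, and the other 9 lie between 2.01% and 2.30%.

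No ribosomal protein gene passed the test between scKO and control libraries. Of the 86 genes, 69 passed the filter on low counts, and 17 did not, with means of at most 16.6 CPM. Among these were Rps4x, Rps6, Rps23, Rps27a and Rps27rt of the small subunit and Rpl3l, Rpl7a, Rpl10l, Rpl15, Rpl19, Rpl24, Rpl29, Rpl36, Rpl36al, Rpl39l and Rpl41 of the large. edgeR's quasi-likelihood test with Benjamini-Hochberg adjustment over all 6906 genes tested called 3 genes (0.0434%) and 0 of the 69. Of the 3 genes, 2 were higher in scKO (0.0290% of genes tested) and 1, Hoxa10, was lower (0.0145%). DESeq2 called 6 genes (0.0869%) and limma-voom 3 (0.0434%), again with 0 of the 69. At an unadjusted p under 0.05, edgeR gave 2 of the 69 genes, against 6.15% of all genes tested.

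Fold changes of the 69 genes, as log2 of scKO over control, lay close to 0 and on both sides of it. There were 36 positive and 33 negative values, with a median of 0.01 and quartiles of -0.12 and 0.15. Over all genes tested the median was -0.02 and the quartiles were -0.19 and 0.15. The 41 tested large-subunit genes had a median of 0.01 (21 positive, 20 negative), and the 27 tested small-subunit genes had a median of 0.01 (14 positive, 13 negative). Values reached from -0.79 for Rpl26 to 0.43 for Rps3a1. For 0 of the 69 genes did every scKO library lie above every control, a pattern held by 0.203% of all genes tested, and for 0 did every scKO library lie below, held by 0.101%. Without the 4 libraries that stood apart, edgeR called 0 of 7077 genes, with 606 (8.56%) at an unadjusted p under 0.05, and 49 of 70 tested ribosomal protein genes were negative, with a median of -0.10 against -0.01 for all genes.

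**Figure D3:**
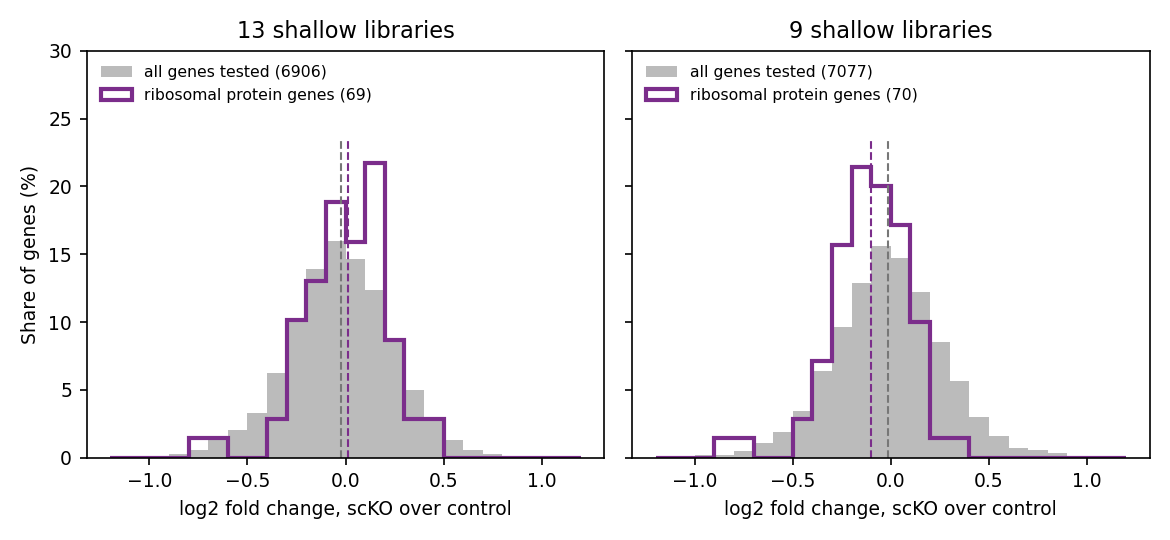
Share of genes (percent) by log2 fold change, scKO over control, for the tested ribosomal protein genes (purple outline) and for all genes tested (grey), in all 13 shallow libraries (left) and in the 9 without those that stood apart (right); dashed lines are medians, and values beyond the axis are in the end bins. The medians of the ribosomal protein genes are 0.01 with 13 libraries and -0.10 with 9.

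Rpl26 (ENSMUSG00000060938, chr11:68901583-68906989) had the lowest fold change. It encodes a large-subunit protein near the exit tunnel that is also known to bind p53 mRNA. Its level was 22.5, 34.6 and 40.8 CPM (lowest, median and highest) in shallow controls and 13.2, 17.4 and 26.9 CPM in shallow scKO libraries, from counts of 8 to 32. All 6 scKO libraries lay below the control median, but the ranges overlapped, since control 6 was the lowest control. The means were 33.5 ± 6.57 CPM (SD, n = 7) and 19.1 ± 6.41 CPM (SD, n = 6). This gave -0.79 ± 0.23 (SE) on the log2 scale, which did not pass (adjusted p = 0.605, edgeR). In the deep libraries the difference had the other sign: controls had 46.1 and 58.6 CPM and scKO libraries 58.7, 56.5 and 57.5 CPM (log2 fold change 0.15 ± 0.12, SE; adjusted p = 0.476, edgeR), from counts of 243 to 336, far from the ceiling.

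Rpl14 (ENSMUSG00000025794, chr9:120571444-120574654), another large-subunit protein, followed. It had 48.0, 79.7 and 95.1 CPM in shallow controls and 35.4, 46.2 and 69.7 CPM in shallow scKO libraries. All 6 scKO libraries were again below the control median, and the ranges overlapped. The difference was -0.65 ± 0.21 (SE) on the log2 scale, with an adjusted p of 0.699 from edgeR. It was -0.70 ± 0.22 (SE; adjusted p = 0.314, edgeR) without the 4 libraries that stood apart. The deep controls had 102.7 and 112.2 CPM and the deep scKO libraries 112.0, 116.6 and 116.4 CPM, a difference of 0.10 ± 0.09 (SE) on the log2 scale (adjusted p = 0.552, edgeR). Rpl26 and Rpl14 were the only genes of the 69 with an unadjusted p under 0.05, and neither passed the adjustment.

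In the other direction, Rpl35a, a large-subunit protein that is mutated in some patients with Diamond-Blackfan anaemia, had the smallest p. Its level was 29.9, 46.1 and 57.4 CPM in shallow controls and 52.3, 61.5 and 72.7 CPM in shallow scKO libraries. No scKO library was below the control median, and the ranges overlapped between 52.3 and 57.4 CPM. On the log2 scale the difference was 0.35 ± 0.17 (SE; adjusted p = 0.822, edgeR). It was 0.22 ± 0.18 (SE) without the 4 libraries that stood apart and 0.04 ± 0.10 (SE) in the deep libraries.

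The other genes with the largest fold changes varied more between libraries of a group than between groups. Rps3a1, a small-subunit protein, had 9.56 to 22.2 CPM in shallow controls and 4.16 to 39.5 CPM in shallow scKO libraries, for a log2 fold change of 0.43 (SE 0.38). Rpl34 had 24.5 to 114.7 CPM and 38.2 to 128 CPM in the same groups (log2 fold change 0.41, SE 0.30). Rps20, a small-subunit protein, had 163.5 to 505.5 CPM in controls and 192.3 to 392 CPM in scKO libraries, for a log2 fold change of -0.37 (SE 0.24). Rps16 (-0.31, SE 0.18), Rpl13 (-0.28, SE 0.25), Rps7 (0.35, SE 0.22), Rpl23a (0.27, SE 0.18), Rplp0 (0.28, SE 0.20) and Rps9 (0.28, SE 0.27) had log2 fold changes within the same range. The lowest edgeR adjusted p among these genes was 0.822.

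The most abundant genes had fold changes near 0. Rpl4 had 3943, 4464 and 7527 CPM in shallow controls and 3702, 4771 and 5748 CPM in scKO libraries (log2 fold change -0.14, SE 0.16). These levels are held down by the ceiling, most in the deeper libraries; corrected for UMI collisions they were 6972 to 9529 CPM in controls and 6847 to 9155 CPM in scKO libraries. Without the 4 libraries that stood apart, the uncorrected log2 fold change turned to 0.14 (SE 0.12), again without a call. Rps12 (0.12, SE 0.17), Rpl22 (0.17, SE 0.13) and Rpl11 (0.17, SE 0.23) also had ranges that overlapped. Rpl3 (0.18, SE 0.21) and Rpl7 (0.04, SE 0.17) lay in the same span of log2 fold changes. Rpl11 is one of the proteins that bind Mdm2 when ribosome assembly is disturbed. Rpl23a, which shares all of its coding stretches, had 715.1, 1008 and 1212 CPM in controls and 688.4, 1185 and 1400 CPM in scKO libraries, with overlap.

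**Figure D4:**
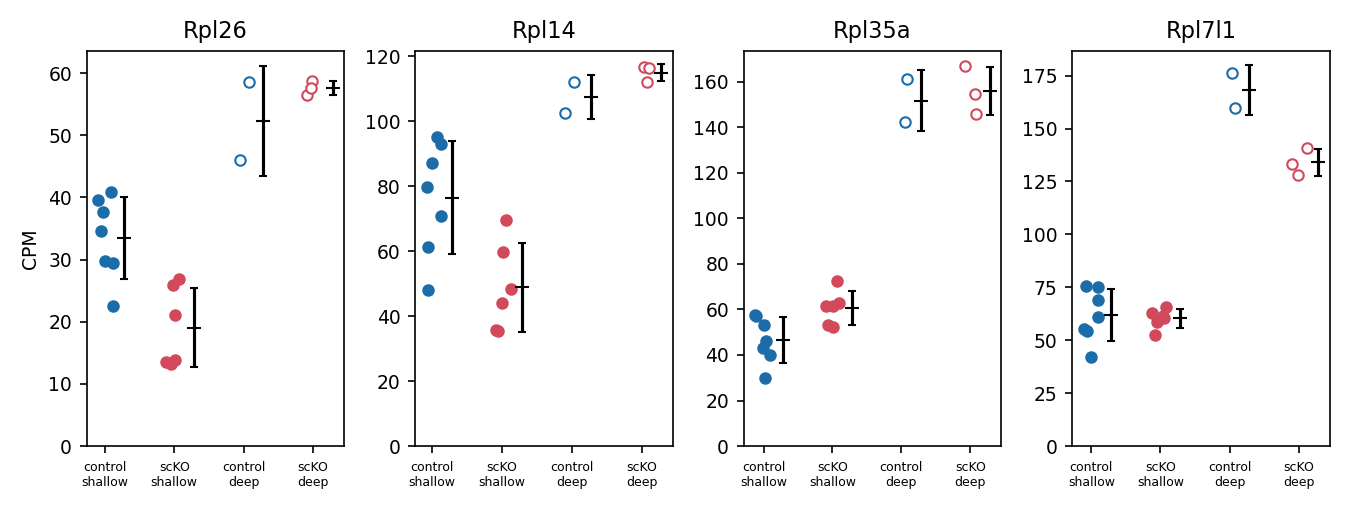
CPM of Rpl26, Rpl14, Rpl35a and Rpl7l1 in each control and scKO library; filled points are shallow libraries, open circles are deep libraries (whose levels are not compared with shallow ones), and bars give each group's mean and SD. Rpl26 and Rpl14 are lower in shallow scKO libraries with overlap and not in deep ones, and Rpl7l1 is lower in the deep scKO libraries than in the deep controls.

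The 5 deep libraries gave a different count but could not be read for many of these genes. In every deep library 22 of the 86 genes had at least 50% of the ceiling, and 4 had at least 90% of it. In the shallow libraries Rpl4 was the only gene above 50%. With edgeR on the deep libraries alone, 1884 of 13136 genes were called, 14.3% in either direction and 7.03% lower in scKO. Of 82 ribosomal protein genes tested there, 1 was called lower, a share below that background, and 58 were negative, with a median log2 fold change of -0.07 against -0.00 for all genes. Counts held at the ceiling give more CPM where a library's total is smaller. Rpl4, at 4094 or more in all 5, had 986.9 CPM in control 1 (4346150 counts in all) and 666.9 CPM in control 2 (5986128). In the deep scKO libraries it had 689.0 to 777.7 CPM. The part of the ceiling in the negative lean was not tested. With all 18 libraries and the depth class as a covariate, 52 of 7662 genes were called (0.679%) and 0 of 72 ribosomal protein genes.

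The gene called in the deep libraries was Rpl7l1 (ENSMUSG00000063888, chr17:46773907-46782672), which encodes a relative of Rpl7 that acts in the assembly of the large subunit and is not part of the mature ribosome. The deep controls had 176.5 and 159.9 CPM, and the deep scKO libraries had 140.8, 133.1 and 128.2 CPM. The counts were 675 to 982, well under the ceiling. On the log2 scale it fell by 0.33 ± 0.09 (SE; adjusted p = 0.0302, edgeR). In the shallow libraries the gene had 42.1, 60.9 and 75.4 CPM in controls and 52.7, 60.9 and 65.8 CPM in scKO, a difference of -0.05 ± 0.16 (SE) on the log2 scale (adjusted p = 0.958, edgeR). The difference between the deep and the shallow result was not tested.

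Several ribosomal proteins have close relatives, and their reads may be shared. The coding sequence of Rps27rt, a copy of Rps27 on another chromosome, is the same as that of Rps27 over all 252 bases, so reads from their coding parts cannot be told apart. Rps27l, which p53 activates, is 76.2% identical to Rps27, and Rpl36al is 87.7% identical to Rpl36a. The first 60 coding bases (GENCODE M21) show how far these genes differ, with capitals at bases of Rps27l that differ from Rps27 and at bases of Rpl36al that differ from Rpl36a.
Rps27: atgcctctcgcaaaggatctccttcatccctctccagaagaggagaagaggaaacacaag
Rps27rt: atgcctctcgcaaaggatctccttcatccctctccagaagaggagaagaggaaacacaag
Rps27l: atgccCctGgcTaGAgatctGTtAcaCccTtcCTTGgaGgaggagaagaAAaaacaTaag
Rpl36a: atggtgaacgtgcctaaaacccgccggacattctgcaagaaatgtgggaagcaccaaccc
Rpl36al: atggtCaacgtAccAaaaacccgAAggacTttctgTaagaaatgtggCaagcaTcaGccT

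Per kilobase, Rps27l stood at 259.7 CPM per kb, above Rps27 at 59.9 and Rps27rt at 16.0. Rpl36a had 99.5 CPM per kb and Rpl36al 12.3. Rps27 and Rps27rt are uncertain because of their identity. Rpl36a and Rpl36al are uncertain as well, since all of their coding stretches of 50 bases occur in another annotated gene. Between groups, Rps27l had 103.7, 117.0 and 177.0 CPM in shallow controls and 101.0, 130.6 and 177.9 CPM in shallow scKO libraries, with a log2 fold change of 0.13 (SE 0.18). The fold changes of Rps27 (-0.01, SE 0.27) and Rpl36a (-0.01, SE 0.21) were also near 0 on the log2 scale.

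Rpl22 and Rpl22l1 encode alternative forms of a large-subunit protein, and loss of Rpl22 is known to raise Rpl22l1. Their coding sequences are 66.9% identical. Rpl22 had 693, 801.6 and 898.6 CPM in shallow controls and 719.8, 904.1 and 1039 CPM in scKO libraries. Rpl22l1 had 115, 237.1 and 383.5 CPM in controls and 185.7, 257.1 and 279.9 CPM in scKO libraries, with a log2 fold change of 0.15 (SE 0.23). Both pairs of ranges overlapped. The X-linked genes Rpl10 (-0.24, SE 0.25) and Rpl39 (-0.19, SE 0.18) had log2 fold changes about as large as their SE. The variant Rpl39l had a single count, in control 6, and Rpl10l and Rpl3l had none.

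The first principal component of the ribosomal protein genes separated libraries of both groups. Controls 7, 8 and 9 and scKO 1 had been singled out on all genes, so their separation is given as a description. In these 4 libraries 30 of the 69 tested genes (43.5%) lay below all other 9 shallow libraries, against 7.24% of all genes tested, and 5 (7.25%) lay above all 9, against 11.0%. The first principal component of the 69 genes held 63.1% of their variance, where that of all genes held 39.5%, and the 4 libraries scored 3.84 to 4.70 on it and the others -2.12 to -1.40. The genes below came from both subunits, 18 of the large and 12 of the small.

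Among the genes below were all 3 of the acidic stalk, Rplp0, Rplp1 and Rplp2, which recruits elongation factors. Rps2, at the mRNA entry of the small subunit, had 3.29 to 8.86 CPM in the 4 libraries and 20.9 to 62.3 CPM in the other 9. Rpl10a had 78.9 to 119 CPM against 199 to 331 CPM, and Rps9 had 73.1 to 112 CPM against 170 to 248 CPM. Rpl18 (176 to 220 against 321 to 531 CPM) and Rpl34 (24.5 to 44.3 against 77.8 to 128 CPM) were likewise separated, without overlap.

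The 5 genes above were Rpl8, Rpl12, Rpl35, Rps20 and Rps25. Rps25, a small-subunit protein used by viral internal ribosome entry sites, had 372 to 447 CPM in the 4 libraries and 160 to 225 CPM in the other 9. Rpl8 had 569 to 707 CPM against 297 to 472 CPM, and Rpl12 had 397 to 534 CPM against 205 to 330 CPM. Rpl35, whose start holds one of the long pyrimidine runs shown above, had 68.6 to 130 CPM against 20.5 to 60.6 CPM, while Rps9, which also has a run at its start, was among the genes below. Pairs of the 69 genes varied together or against each other: over the 13 libraries Pearson's r was over 0.5 in 35.7% of 2346 pairs and under -0.5 in 14.9%, with a median of 0.29. These correlations share libraries and are a description.

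**Figure D5:**
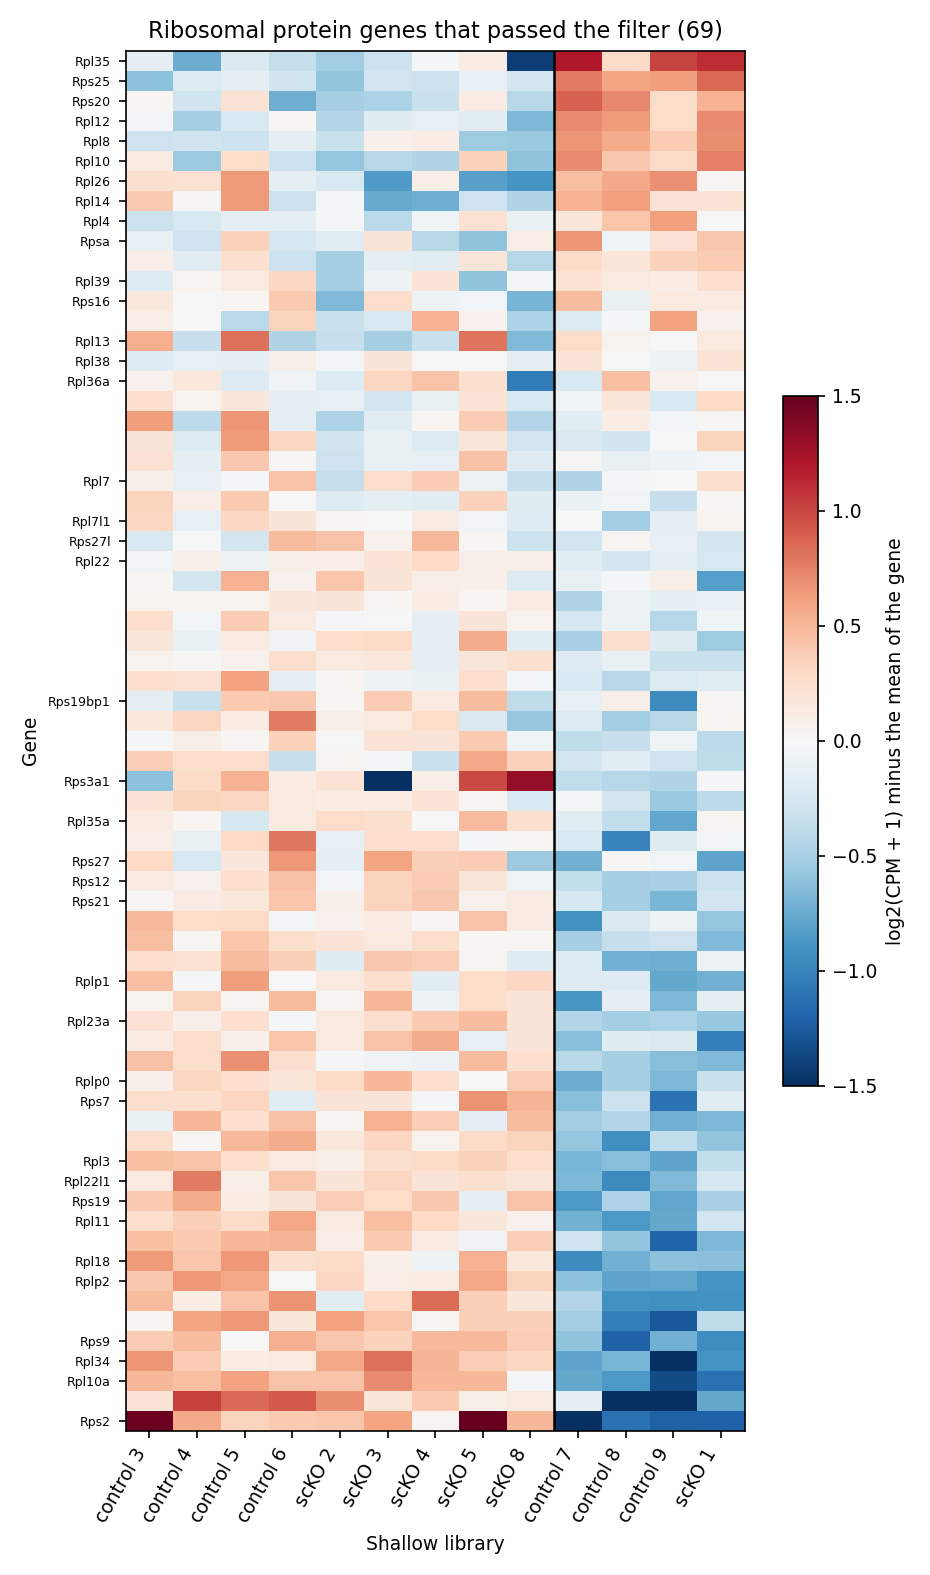
Levels of the 69 tested ribosomal protein genes in the 13 shallow libraries, as log2(CPM + 1) minus each gene's mean, with genes in rows (those named in the text are labelled) and libraries in columns. Many rows are low and a few, such as Rps25 and Rpl8, are high in the 4 libraries at the right, controls 7, 8 and 9 and scKO 1, which come from both groups.

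Counts assigned to annotated ribosomal protein pseudogenes moved with these libraries. Of 284 such rows, 140 had a count in the shallow libraries. They took 0.0915% to 0.117% of the counts in the 4 libraries and 0.0512% to 0.0690% in the other 9. Total counts did not separate them, since scKO 1 had 787934 counts and control 9 had 420197. What sets these libraries apart, and its part in the levels of single genes, was not tested.

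Other genes of translation also held no call in the shallow libraries. None of the 8 tested genes of 10 in the elongation list, which includes Tpt1, passed edgeR's test, with 6 negative and a median log2 fold change of -0.20. Of 38 initiation factor genes 33 were tested and 0 passed, with 18 negative and a median of -0.07. Of 19 other genes with TOP mRNAs, which include Eef1a1 and Tpt1 of the elongation list, 16 were tested and 0 passed. Of the 16, 12 were negative, with a median of -0.25. An unadjusted edgeR p under 0.05 was found for 5 of the 16, against 6.15% of all genes tested. In the deep libraries edgeR called 2 of 18 tested TOP genes and 1 of 10 elongation genes lower, against 7.03% of all genes. It called 0 of 38 initiation genes there. Eef1a1, the main elongation factor that carries tRNA and a TOP mRNA, had 13.5 to 68.6 CPM in shallow controls and 8.08 to 27.3 CPM in scKO libraries (log2 fold change -0.98 ± 0.33, SE; adjusted p = 0.699, edgeR). These levels rest on counts of 5 to 31. The deep controls of Eef1a1 lay far apart, at 19.1 and 108.2 CPM, and its deep log2 fold change was -1.54 ± 0.90 (SE; adjusted p = 0.382, edgeR). Tpt1, also a TOP mRNA, had 38.1 to 54.3 CPM in controls and 39.6 to 95.2 CPM in scKO libraries (log2 fold change 0.49 ± 0.19, SE; adjusted p = 0.729, edgeR). Pabpc1, the poly(A)-binding protein that counts as an initiation gene here, had 222.3 to 595.7 CPM in controls and 155.2 to 368.8 CPM in scKO libraries (log2 fold change -0.52 ± 0.24, SE; adjusted p = 0.810, edgeR). Among ribosomal proteins outside the name rule, Fau and Rack1 had log2 fold changes of -0.54 (SE 0.47) and -0.01 (SE 0.12). Fau had 456.1 to 594.5 CPM in the 4 libraries that stood apart and 105.1 to 282.8 CPM in the other 9, while Rack1 overlapped.

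Genes whose products build ribosomes were called in the deep libraries and not in the shallow ones, a difference that was not itself tested. In the shallow libraries 34 of 41 assembly genes were tested and 0 passed, with 24 negative and a median log2 fold change of -0.11. In the deep libraries edgeR called 13 of 40 tested assembly genes lower and 1 higher, against 7.03% of all genes lower and 7.31% higher. Nop58, a core protein of box C/D ribonucleoproteins that guide rRNA methylation, had 230.2 and 238.2 CPM in deep controls and 172.0 to 190.6 CPM in deep scKO libraries (log2 fold change -0.35; adjusted p = 0.0164, edgeR). Npm1, nucleophosmin, had 399.5 and 424.5 CPM in deep controls and 293.3 to 337.8 CPM in deep scKO libraries (-0.40, edgeR adjusted p = 0.0204). In the shallow libraries their log2 fold changes were -0.47 ± 0.18 (SE; adjusted p = 0.729, edgeR) and -0.45 ± 0.18 (SE; adjusted p = 0.754, edgeR), in the same direction and without a call. Of the 16 genes of growth control, in mTORC1, Myc and RNA polymerase I regulation, 13 were tested in the shallow libraries and 0 passed, with 7 negative. The smallest p in the shallow libraries belonged to Rrn3, a factor of RNA polymerase I (log2 fold change 0.27), and Tsc2, an inhibitor of mTORC1 (0.38). In the deep libraries 3 of 15 were called lower. Of 78 mitochondrial ribosomal protein genes, which serve a separate ribosome, 64 were tested and 0 passed, with 46 negative and a median of -0.08. Mrps24 had the smallest p of these, with 28.3 to 90.6 CPM in controls and 21.0 to 60.1 CPM in scKO libraries (log2 fold change -0.84 ± 0.31, SE; adjusted p = 0.729, edgeR). The 4 libraries that stood apart, 3 controls and 1 scKO, had 60.1 to 90.6 CPM of Mrps24. The other 9 shallow libraries had 21.0 to 51.0 CPM, and the part of this uneven split in the fold change was not tested.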

How the data were processed

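RNA of proliferating satellite cells was sequenced in 9 control and 9 scKO libraries. The deposited table holds raw UMI counts per gene, made by the authors. HISAT2, HTSeq and the rat build Rnor_6.0 are named in the submitters' processing notes, without versions, while the identifiers are mouse Ensembl genes. The library kit, the version of the annotation, strand and the treatment of reads with several matches are not given in the sources used here. Identifiers were paired with symbols for 50376 of 50689 features through GENCODE M21 (GRCm38). The other 313 stayed in library totals and tests.

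The genes and lists were chosen with earlier results of these data known. Groups were compared in the 13 libraries under 2000000 counts with edgeR 4.0.16 in R 4.3.3 (filterByExpr, TMM, robust quasi-likelihood test, Benjamini-Hochberg over all genes tested, threshold 0.05). limma 3.58.1 (voom) and DESeq2 1.42.0 were alternatives. CPM are per 1000000 of TMM-scaled totals, and fold changes are edgeR's. Total counts were 420197 to 5986128, and 3 counts correspond to 3.10 to 7.14 CPM in shallow libraries. UMIs with few bases undercount abundant genes. In simulated counts with the shallow totals (6779 genes), edgeR called 69 of 100 genes set to a fold of 2, 92 of 100 set to a fold of 4 and 7 of those left as they were. The simulation gave every gene the same dispersion and held neither a UMI ceiling nor libraries that stood apart. Its rates may therefore not hold for the real libraries. Promoters came from RefSeq (GRCm38.p6). Stretches of 50 bases were compared among annotated GENCODE M21 transcripts only, and the read length is not stated. Named genes were the 5 largest fold changes and the 5 smallest p in each direction, the 6 highest mean counts, genes with close relatives and any call. From each other list any called gene and the 2 smallest p were taken, with Hoxa10 as the check. A few of these are left out here. Genes named for the 4 libraries that stood apart and for levels per kilobase were chosen after their values were seen. Alternatives were other scalings, filters, tools, a correction for UMI collisions, thinned counts, a replicate block, libraries left out and models with deep libraries.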

Additional observations from a re-analysis of the deposited data

Results flagged for a closer look

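In 4 of 59 groups of values looked at, a single library lay far from the rest of its group by Dixon's criterion, which chance meets in about 1 in 20 groups. Rps9 had 88.8 CPM in scKO 1, against 217.5 to 239.2 CPM in the other shallow scKO libraries, and Rpl22l1 had 185.7 CPM there, against 253.3 to 279.9 CPM. scKO 1 is the scKO library among the 4 that stood apart, and both genes were also low in controls 7, 8 and 9. Rps27l had 177.0 CPM in control 6, against 103.7 to 130.6 CPM in the other shallow controls. Rpl39l had 1.5 CPM in control 6, which is a single count, and 0 in the others.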

How the results depend on the processing

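The call of 0 ribosomal protein genes held under every alternative run except the deep libraries alone, where 1 gene, Rpl7l1, was called lower. The count of all genes called, 3, was 13 with no filter on low counts, 1 with counts thinned to the smallest total, 0 without controls 7, 8 and 9 and scKO 1, and 6 with DESeq2. Over all 18 libraries it was 1 for the group alone and 52 once depth class was a covariate, and the deep libraries alone gave 1884. Leaving out each library in turn gave 1 to 5 genes (1 without control 3, control 8 or control 9, and 5 without scKO 1), with 0 ribosomal protein genes each time and medians of -0.03 to 0.09. The difference in the set's share of counts, scKO minus control, was 0.0171 percentage points, and -0.0261 to 0.0684 with a library left out. Correcting for UMI collisions made it -0.04, and leaving out the 4 libraries -0.110. The SD of controls was 0.226 with those libraries and 0.0553 without them. Correlations did not settle whether shared replicate numbers pair the libraries. Of 4 shared numbers, 3 gave correlations over 0.1 and 1 gave -0.10, and 2 of 4 controls correlated best with their own number. A replicate block called 3 genes and 0 ribosomal protein genes, with a median of 0.01. Among named genes the other alternatives reversed no call, and Nop58 and Npm1 were called in the deep libraries. Signs were less stable: 20 of 27 named ribosomal protein genes changed the sign of their fold change under some alternative, without a call. Low counts limit the genes under 10 CPM, where a count of 3 is near the level itself, and the UMI ceiling limits abundant genes in deep libraries and Rpl4 in every library.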
